A study of Mus musculus with 9 samples.

Results

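The BCL2 family is the set of proteins that decides whether the outer mitochondrial membrane stays closed or opens during apoptosis. Transcripts of 10 of its genes were followed here in mouse macrophage-like cells that were driven towards osteoclasts with or without uridine (UD). The members were taken by gene symbol from the deposited expression table, and all 10 were found among its 56691 genes. Each had at least 2.05 FPKM (fragments per kilobase of exon, scaled to the library's total count) in every library, so all 10 were among the 11995 genes tested.

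Apoptosis through mitochondria is set by 3 classes of BCL2 family protein. Anti-apoptotic members (here Bcl2, Bcl2l1, which encodes BCL-XL, and Mcl1) bind and restrain the effectors Bax and Bak1, which otherwise form pores that release cytochrome c. BH3-only members (here Bcl2l11 or BIM, Bbc3 or PUMA, Pmaip1 or NOXA, Bid and Bad) respond to stress or loss of survival signals and either block the anti-apoptotic members or activate the effectors. In osteoclasts, which are short-lived cells, BIM and MCL1 are both known to be turned over by the proteasome and to influence survival and bone resorption. FoxO factors and TRP53 are textbook activators of several BH3-only genes. RNA levels report none of the protein turnover, phosphorylation or binding by which much of this family is controlled.

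RNA-seq covered 9 libraries of the RAW264.7 line, a virus-transformed mouse macrophage line, in 3 groups of 3 replicate cultures, each collected at day 3. Control cells had no added agent, RANKL cells received the osteoclast-inducing cytokine RANKL, and RANKL + UD cells received RANKL together with uridine, a pyrimidine nucleoside. No group received UD without RANKL, so an effect of UD outside RANKL treatment was not measured, and the labels name no engineered allele. The study asked how UD changes transcription during RANKL-driven osteoclast formation.

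Library totals ran from 15951800 to 19746862 counts and no library stood apart by depth. The 7 macrophage markers examined summed to 8954 to 9553 FPKM in control, 2492 to 2728 in RANKL and 2164 to 2301 in RANKL + UD libraries, a sum that Lyz2 dominated. The 9 osteoclast markers summed to 57.5 to 60.2, 2714 to 2919 and 1723 to 1760.0 FPKM in the same order, and all 8 that were tested were called higher with RANKL. Of these, Acp5, Mmp9 and Oscar were tested only through their level in the RANKL-treated libraries. Of the 7 macrophage markers, 5 were called lower and 2 (Cd68 and Spi1) higher with RANKL, and likewise in RANKL + UD against control. In RANKL + UD against RANKL, 6 were lower and 1 (Adgre1) higher. Called shares of all genes were 27.3% higher and 30.2% lower, 26.7% and 27.3%, and 18.6% and 20.2% in these 3 comparisons. The 12 markers of fibroblast, lymphoid, epithelial and endothelial cells summed to at most 1.18 FPKM in any library, with Cd3e at 0. Marker levels therefore moved with every group difference given here, and their part in those differences was not tested. In these bulk libraries, fewer cells with a transcript and less of it per cell cannot be told apart.

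The promoters of 2 BH3-only genes are shown because they hold the FoxO core sequence and because both genes were called lower in RANKL + UD against control, while only Bcl2l11 was called with RANKL and only Bbc3 between the treated groups. Promoter windows (250 bases before to 50 after an annotated start) came from RefSeq on GRCm38.p6 and covered 9 of the 10 members in 15 windows. Pmaip1 had none. The Bcl2l11 window lies at chr2:128125788-128126087 and the Bbc3 window at chr7:16310011-16310310, both on the plus strand and written 5′ to 3′, with capitals marking the FoxO core.
Bcl2l11: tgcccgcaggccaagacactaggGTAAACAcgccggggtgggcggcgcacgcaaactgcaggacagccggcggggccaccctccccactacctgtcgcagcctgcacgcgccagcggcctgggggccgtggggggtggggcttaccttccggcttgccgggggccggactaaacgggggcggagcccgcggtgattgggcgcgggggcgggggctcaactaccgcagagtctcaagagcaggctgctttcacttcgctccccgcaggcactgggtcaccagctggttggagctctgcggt
Bbc3: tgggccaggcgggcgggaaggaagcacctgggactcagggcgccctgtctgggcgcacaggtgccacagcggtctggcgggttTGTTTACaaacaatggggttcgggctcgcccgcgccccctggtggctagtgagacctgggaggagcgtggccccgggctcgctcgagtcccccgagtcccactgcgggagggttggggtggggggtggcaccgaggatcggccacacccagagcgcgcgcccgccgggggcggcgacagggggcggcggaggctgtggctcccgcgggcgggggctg
The letters GTAAACA were searched on both strands and begin 227 bases before the start of Bcl2l11 and 167 bases before that of Bbc3, where they read on the minus strand. Each gene has other windows that lack these letters. The same letters occur in 3.65% of all 32851 windows. The AP-1 sequence TGANTCA occurs in no member window and in 7.81% of all windows. The E-box CACGTG occurs in windows of Bax and Bbc3 and in 7.15% of all windows. These are matches of letters and not measured binding sites.

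Mcl1 was by far the most abundant member in every group and, among the 10 members, Pmaip1 carried the largest change. In control cells the mean FPKM followed the order Mcl1 (320 ± 19.2, SD, n = 3), Bax (41.7 ± 3.90), Bak1 (32.5 ± 2.78), Pmaip1 (31.0 ± 2.83), Bid (18.1 ± 0.517), Bcl2l1 (9.55 ± 0.870), Bbc3 (6.56 ± 0.879), Bcl2l11 (6.27 ± 0.616), Bad (4.56 ± 0.754) and Bcl2 (3.84 ± 0.313). Libraries of Bak1 and Pmaip1 overlapped in that order, as did those of Bbc3 and Bcl2l11 and those of Bad and Bcl2. With RANKL, Pmaip1 moved from the fourth place to the second, at 109.7 ± 2.84 FPKM, and it held that place with UD at 81.6 ± 1.36 FPKM. Bcl2 was the least abundant member in all 3 groups, on this scale that corrects for exonic length.

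**Figure D1:**
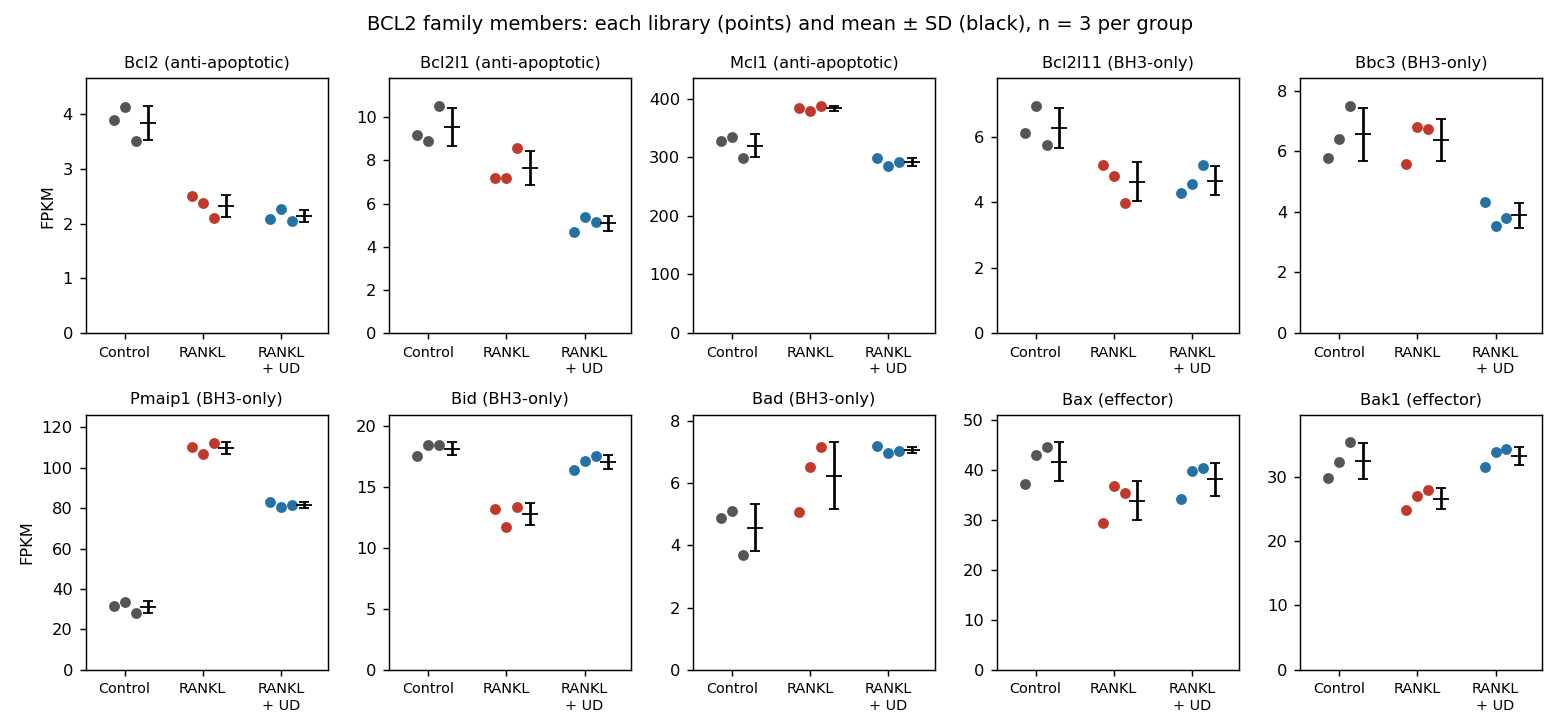
Level in FPKM (vertical axes, each from 0 and differing between panels) of the 10 BCL2 family members in each of the 3 libraries of control (grey), RANKL (red) and RANKL + UD (blue) cells, with the mean and SD of each group in black. Pmaip1 sits between 28.0 and 33.5 FPKM in control and above 80 FPKM in all 6 RANKL-treated libraries, and Bcl2l1 steps down from group to group.

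Against control, RANKL raised 3 members (Mcl1, Pmaip1 and Bad), lowered 6 (Bcl2, Bcl2l1, Bcl2l11, Bid, Bax and Bak1) and left Bbc3 without a call, by an adjusted p under 0.05 in edgeR's quasi-likelihood test over all 11995 genes. Among all genes tested, 27.3% were called higher and 30.2% lower in this comparison. With a fold change over 1.5 as well, 1 member was higher (Pmaip1) and 1 lower (Bcl2), where the background was 10.8% and 14.1%. In FPKM, which is scaled to library totals alone, libraries of the 2 groups did not overlap for 8 members, against 61.7% of all genes. The median log2 fold change was -0.21 over the members and -0.03 over all genes. The count of lower members rested partly on single libraries: it was 3 without control replicate 3 or without RANKL replicate 1, since Bcl2l1, Bax and Bak1 then missed the threshold.

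Against control, RANKL + UD raised 2 members (Pmaip1 and Bad) and lowered 5 (Bcl2, Bcl2l1, Mcl1, Bcl2l11 and Bbc3), while Bid, Bax and Bak1 were not called. All genes gave 26.7% higher and 27.3% lower. With a fold over 1.5, 2 members were higher and 3 lower (Bcl2, Bcl2l1 and Bbc3), beside 9.3% and 12.8% of all genes. Libraries did not overlap for 6 members and for 59.9% of all genes. The higher members past a fold of 1.5 numbered 1 without control replicate 3, when Bad dropped under that fold.

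Against RANKL alone, the addition of UD lowered 4 members (Bcl2l1, Mcl1, Bbc3 and Pmaip1) and raised 2 (Bid and Bak1), and Bcl2, Bcl2l11, Bad and Bax were not called. Among all genes, 20.2% were lower and 18.6% higher. With a fold over 1.5, 2 members were lower (Bcl2l1 and Bbc3) and none was higher, where 5.49% of all genes were lower and 4.38% higher. Libraries did not overlap for 6 members, against 51.7% of all genes. The median over the members was -0.15 on the log2 scale and that over all genes 0.01. These 3 comparisons share libraries in pairs and are not independent of each other, so their values are set side by side for each member.

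**Figure D2:**
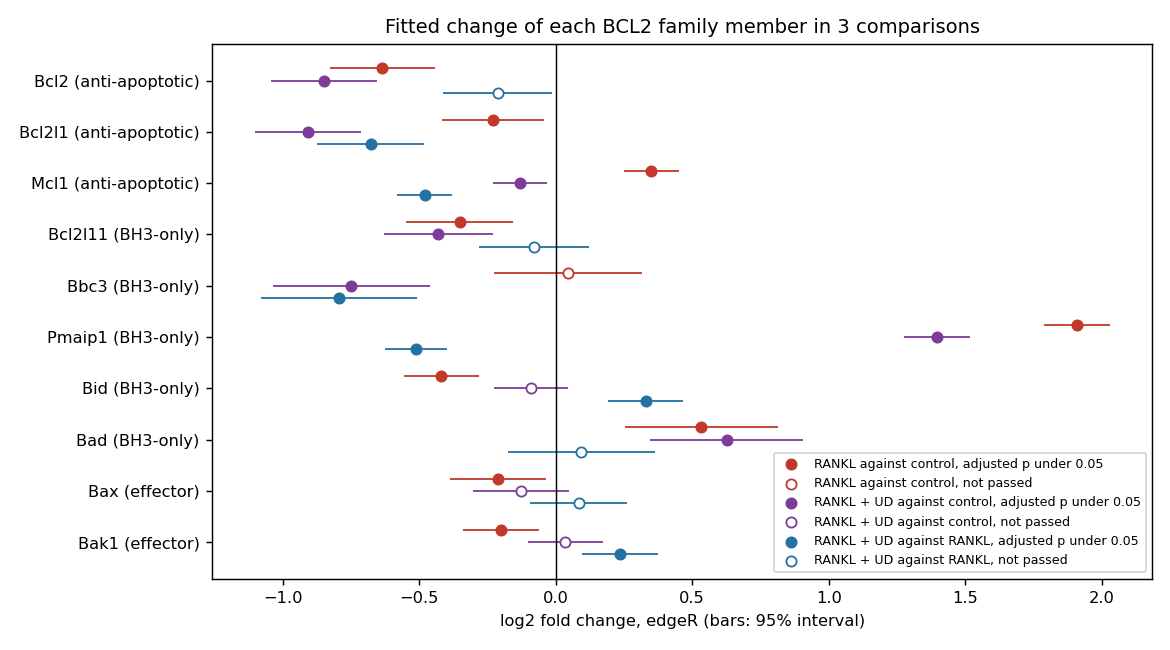
Fitted log2 fold change (horizontal axis) with its 95% interval for each BCL2 family member in RANKL against control (red), RANKL + UD against control (purple) and RANKL + UD against RANKL (blue), with open circles where the adjusted p did not pass 0.05. Pmaip1 lies farthest to the right at 1.91, and Bcl2l1 lies furthest to the left at -0.91 in RANKL + UD against control.

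Among the anti-apoptotic members, Bcl2l1 fell with RANKL and fell further when UD was added. Bcl2l1 (chromosome 2, 152622588 to 152673648, minus strand) measured 9.18, 8.92 and 10.5 FPKM in control, 7.20, 7.18 and 8.57 in RANKL and 4.70, 5.39 and 5.16 in RANKL + UD libraries. In FPKM, which is scaled to library totals alone, no library of any group reached into the range of another. The fall with RANKL was 0.23 on the log2 scale (log2 fold change -0.23 ± 0.0897 SE, adjusted p = 0.0331, edgeR). It was the least firm of the Bcl2l1 results, with adjusted p between 0.118 and 0.154 without control replicate 3, RANKL replicate 1 or RANKL replicate 2, and 0.0526 in DESeq2. UD then lowered it against RANKL by a log2 fold change of -0.68 ± 0.0937 (adjusted p = 7.44e-06, edgeR), and RANKL + UD stood at -0.91 ± 0.0932 against control (adjusted p = 4.05e-08, edgeR), which is 0.533 of the control level. All coordinates of genes given here are those of the deposited table, which does not name their build and which differ from the GRCm38 annotation for all 10 members.

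Mcl1, which encodes a short-lived anti-apoptotic protein, rose with RANKL and came back to slightly under control with UD. Mcl1 (chromosome 3, 95566099 to 95570487, plus strand) measured 327, 334 and 298 FPKM in control, 383, 379 and 388 in RANKL and 299, 285 and 291 in RANKL + UD libraries. The RANKL libraries were all above both other groups, whereas control and RANKL + UD overlapped. Mcl1 changed by a log2 fold change of 0.35 ± 0.0479 for RANKL against control (adjusted p = 2.27e-06, edgeR) and -0.48 ± 0.0480 for RANKL + UD against RANKL (adjusted p = 9.74e-08, edgeR). Against control, RANKL + UD was lower by -0.13 ± 0.0480 (adjusted p = 0.0265, edgeR), a call that missed the threshold without control replicate 1 (0.103), control replicate 2 (0.128), RANKL + UD replicate 2 (0.121) or RANKL + UD replicate 3 (0.0777).

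Bcl2, the founding anti-apoptotic member, fell with RANKL whether or not UD was present. Bcl2 (chromosome 1, 106465908 to 106642004, minus strand) measured 3.89, 4.13 and 3.51 FPKM in control, 2.50, 2.37 and 2.11 in RANKL and 2.09, 2.26 and 2.05 in RANKL + UD libraries. Both treated groups lay wholly below control and overlapped each other. Against control the log2 fold change was -0.64 ± 0.0922 with RANKL (adjusted p = 4.89e-06, edgeR) and -0.85 ± 0.0937 with RANKL + UD (adjusted p = 1.2e-07, edgeR). The difference between the treated groups was -0.21 ± 0.0960 with a 95% interval of -0.41 to -0.01 and an adjusted p of 0.0864 in edgeR, which became 0.0389 without RANKL replicate 3.

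Of the BH3-only members, Pmaip1 (NOXA, a selective partner of MCL1) showed the widest separation. Pmaip1 (chromosome 18, 66591604 to 66598636, plus strand) measured 31.6, 33.5 and 28.0 FPKM in control, 110.3, 106.6 and 112.2 in RANKL and 83.1, 80.4 and 81.4 in RANKL + UD libraries. All 3 groups were apart, with RANKL + UD between the others. RANKL raised it 3.75-fold (log2 fold change 1.91 ± 0.0579, adjusted p = 5.48e-17, edgeR) and RANKL + UD 2.63-fold over control (1.40 ± 0.0577, adjusted p = 1.19e-14, edgeR). UD lowered it against RANKL by a log2 fold change of -0.51 ± 0.0547 (adjusted p = 2.38e-07, edgeR), which leaves 0.701 of the RANKL level.

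Bbc3 (PUMA, which binds all the anti-apoptotic members examined) was lower in RANKL + UD cells than in either other group. Bbc3 (chromosome 7, 16042318 to 16052130, plus strand) measured 5.76, 6.41 and 7.50 FPKM in control, 5.57, 6.80 and 6.72 in RANKL and 4.33, 3.52 and 3.79 in RANKL + UD libraries. Control and RANKL libraries overlapped and all RANKL + UD libraries lay below both. The log2 fold change was -0.79 ± 0.136 against RANKL (adjusted p = 9.14e-05, edgeR) and -0.75 ± 0.137 against control (adjusted p = 9.42e-05, edgeR). RANKL against control gave 0.05 with a 95% interval of -0.23 to 0.32, and the sign of this small value changed under several settings. Bbc3 rests on few reads, with 122 to 279 counts in a library.

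Bcl2l11 (BIM), whose promoter window also holds the FoxO letters, was called with RANKL, where Bbc3 was not. Bcl2l11 (chromosome 2, 127967958 to 128004467, plus strand) measured 6.11, 6.95 and 5.75 FPKM in control, 5.13, 4.79 and 3.97 in RANKL and 4.29, 4.56 and 5.14 in RANKL + UD libraries. Both treated groups lay below control and overlapped each other. Set against control, the log2 fold change was -0.35 ± 0.0946 with RANKL (adjusted p = 0.00321, edgeR) and -0.43 ± 0.0952 with RANKL + UD (adjusted p = 0.000655, edgeR). Between RANKL + UD and RANKL it was -0.08 with a 95% interval of -0.28 to 0.12, and it turned to 0.01 on total counts without TMM scaling.

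Bid, which links death receptors to mitochondria once cleaved, fell with RANKL and was higher with UD than with RANKL. Bid (chromosome 6, 120868891 to 120893814, minus strand) measured 17.5, 18.4 and 18.5 FPKM in control, 13.2, 11.7 and 13.4 in RANKL and 16.4, 17.1 and 17.6 in RANKL + UD libraries. RANKL libraries lay below both other groups, which overlapped. Bid changed by a log2 fold change of -0.42 ± 0.0660 for RANKL against control (adjusted p = 1.38e-05, edgeR) and 0.33 ± 0.0661 for RANKL + UD against RANKL (adjusted p = 0.000465, edgeR). RANKL + UD against control gave -0.09 with a 95% interval of -0.23 to 0.05. Bid overlaps Bcl2l13 on the opposite strand over 913 bases, and Bcl2l13 averaged 5.91, 5.41 and 6.31 FPKM in control, RANKL and RANKL + UD. The counting strand is not given in the sources used here.

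Bad, a BH3-only member switched off by phosphorylation downstream of AKT, was higher in both treated groups. Bad (chromosome 19, 6919229 to 6929267, plus strand) measured 4.87, 5.11 and 3.70 FPKM in control, 5.06, 6.51 and 7.15 in RANKL and 7.18, 6.97 and 7.04 in RANKL + UD libraries. In FPKM, RANKL replicate 1 fell inside the control range, and all RANKL + UD libraries were above control. The log2 fold change against control was 0.53 ± 0.135 with RANKL (adjusted p = 0.00193, edgeR) and 0.63 ± 0.134 with RANKL + UD (adjusted p = 0.000474, edgeR). RANKL + UD against RANKL gave 0.09 with a 95% interval of -0.18 to 0.36. Bad overlaps Gpr137 on the opposite strand over 620 bases, and Gpr137 averaged 2.59, 4.28 and 3.77 FPKM in control, RANKL and RANKL + UD, in the same direction as Bad against control. The part of these overlapping reads in the Bad values was not tested.

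Neither effector differed by more than 0.24 on the log2 scale in any comparison. Bax (chromosome 7, 45111121 to 45116322, minus strand) measured 37.3, 43.1 and 44.7 FPKM in control, 29.5, 36.8 and 35.4 in RANKL and 34.3, 39.8 and 40.4 in RANKL + UD libraries. In FPKM, RANKL lay below control by a narrow gap, and RANKL + UD overlapped both groups. The log2 fold change of Bax with RANKL was -0.21 ± 0.0847 (adjusted p = 0.0382, edgeR), and it became -0.12 without RANKL replicate 1 (adjusted p = 0.234) and missed the threshold also without control replicate 2 (0.115) or control replicate 3 (0.125), with RLE size factors (0.0566) and in DESeq2 (0.0642). RANKL + UD gave -0.13 against control (95% interval -0.30 to 0.05) and 0.08 against RANKL (-0.09 to 0.26).

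Bak1 (chromosome 17, 27238784 to 27247983, minus strand) measured 29.8, 32.4 and 35.4 FPKM in control, 24.9, 27.1 and 28.0 in RANKL and 31.6, 33.9 and 34.3 in RANKL + UD libraries. RANKL libraries lay below both other groups, which overlapped. The log2 fold change of Bak1 was -0.20 ± 0.0665 for RANKL against control (adjusted p = 0.0140, edgeR), with 0.0798 without control replicate 3 and 0.0786 without RANKL replicate 1. UD raised Bak1 against RANKL by a log2 fold change of 0.24 ± 0.0663 (adjusted p = 0.00774, edgeR), and RANKL + UD against control gave 0.03 with a 95% interval of -0.10 to 0.17. Bak1 lies within Ggnbp1 of the opposite strand, which stayed at or under a group mean of 0.273 FPKM.

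Within these 10 members alone, the anti-apoptotic share of the summed FPKM values went down from group to group, as a description with no test. It was 68.5% to 71.9% in control, 65.8% to 67.0% in RANKL and 61.1% to 62.8% in RANKL + UD libraries, without overlap. The BH3-only share was 14.04% ± 0.217 in control, 23.5% ± 0.319 in RANKL and 23.6% ± 0.0784 in RANKL + UD (SD, n = 3), most of it Pmaip1 in both treated groups. The effector share was 15.7% ± 1.74, 10.2% ± 0.821 and 14.7% ± 1.05 in the same order. The sum itself was higher in RANKL, at 594 ± 10.1 FPKM, than in control (474 ± 18.8) and RANKL + UD (485 ± 5.02), which is mainly Mcl1 and Pmaip1. Counted as reads (CPM, counts scaled to the library's total count) without length correction, the anti-apoptotic share was 76.0%, 72.1% and 68.1%, in the same order of groups. Family genes outside the 10 were left out of the sum. Of these, anti-apoptotic Bcl2a1b averaged 30.6 FPKM in control, 58.1 in RANKL and 55.6 in RANKL + UD, and Bcl2a1d 41.9, 51.1 and 66.7. Others left out rose (Bnip3, Bnip3l) or fell (Bmf) with RANKL. Shares that include such genes were not computed.

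**Figure D3:**
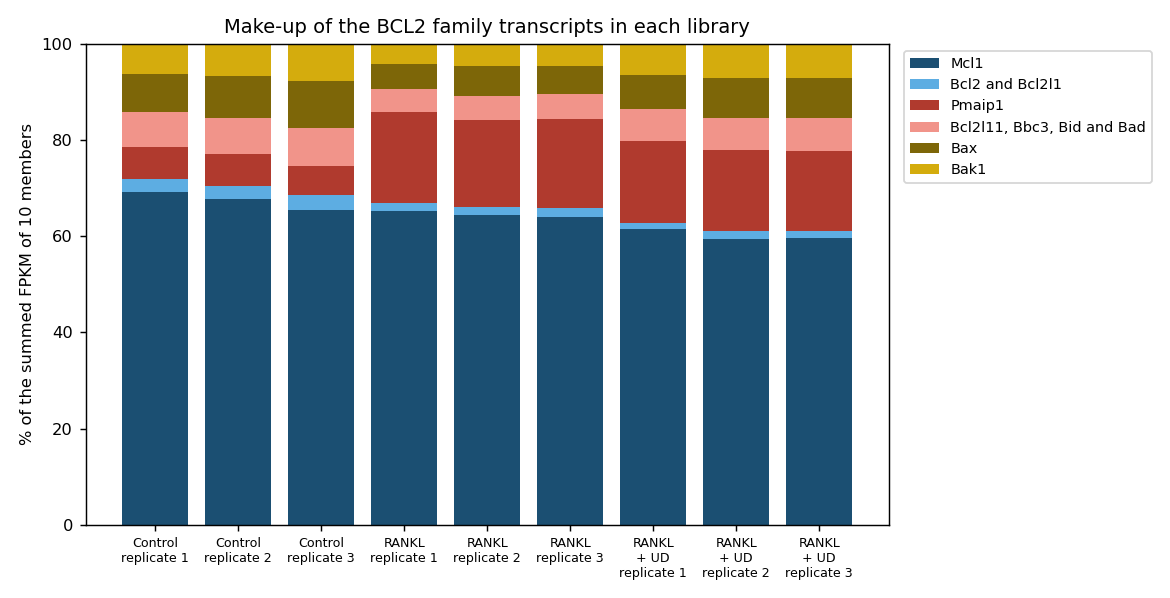
Share (vertical axis, % of the summed FPKM of the 10 members) of Mcl1, of Bcl2 with Bcl2l1, of Pmaip1, of the other BH3-only genes, of Bax and of Bak1 in each of the 9 libraries (bars). Pmaip1 takes 6.14% to 6.80% in control, 18.1% to 18.8% in RANKL and 16.7% to 17.1% in RANKL + UD libraries.

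Ratios between opposing members separated the groups in different ways, and no ratio given here set all 3 groups apart. The ratio of Pmaip1 to Mcl1 FPKM was 0.0969 ± 0.00331 in control, 0.286 ± 0.00432 in RANKL and 0.280 ± 0.00231 in RANKL + UD cells (SD, n = 3), and the libraries of the treated groups overlapped. Bax over Bcl2l1 was 4.37 ± 0.402, 4.45 ± 0.583 and 7.50 ± 0.283 in the same order, with all RANKL + UD libraries above the others. Bak1 over Mcl1 was 0.102 ± 0.0146, 0.0694 ± 0.00400 and 0.114 ± 0.00741, where control and RANKL + UD libraries overlapped and RANKL lay below both. Bcl2l11 over Bcl2l1 was 0.663 ± 0.117, 0.614 ± 0.133 and 0.918 ± 0.0752, where control and RANKL overlapped below RANKL + UD. Bax over Bcl2 was 10.9 ± 1.63, 14.7 ± 2.58 and 17.9 ± 1.66, where RANKL overlapped both other groups. Bbc3 over Bcl2l1 was 0.686 ± 0.0507, 0.835 ± 0.0973 and 0.770 ± 0.138, where RANKL + UD overlapped both other groups. Transcript ratios were not tested and say nothing of the proteins.

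Among the other 14 BCL2 family genes listed, 9 were tested, and RANKL raised 6 and lowered 2 of them, as did RANKL + UD, whereas RANKL + UD against RANKL raised 1 and lowered 3. The share of all genes called higher and lower was 27.3% and 30.2% with RANKL, 26.7% and 27.3% with RANKL + UD against control, and 18.6% and 20.2% with RANKL + UD against RANKL, which is the background for this and the following lists. The median log2 fold change of the 9 genes was 0.55, 0.31 and -0.03 in these comparisons. Bcl2l10, Bok, Bik, Hrk and Bcl2l14 were under the expression limit, at 0.47 FPKM or less in every library. Bnip3 and Bnip3l, hypoxia-inducible genes of mitophagy, rose with RANKL by log2 fold changes of 1.43 ± 0.0438 and 1.015 ± 0.0479 and were lower with UD than with RANKL by -0.81 ± 0.0430 and -0.70 ± 0.0474. Bnip3 measured 92.7 to 94.7 FPKM in control, 236 to 240.1 in RANKL and 143 to 145 in RANKL + UD libraries, without overlap.

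The largest fitted change of that list was Bcl2a1a, an anti-apoptotic NF-κB target that exists as near-identical mouse copies whose reads may be divided uncertainly. Bcl2a1a averaged 0.383 FPKM in control, 22.7 in RANKL and 25.6 in RANKL + UD (log2 fold change 5.90 ± 0.215 and 5.99 ± 0.214 against control). Its control libraries held only 3 to 9 counts, at 0.23 to 0.56 FPKM, and were all under the expression limit. It was therefore tested only through the RANKL-treated libraries where it is high, and the size of its fold change rests on that low control level. With the 3 tested copies summed, a choice made after seeing the data, the sum was 56.3 to 64.5 CPM in control, 103 to 116 in RANKL and 114 to 134 in RANKL + UD libraries. Its log2 fold change was 0.93 ± 0.0699 with RANKL (adjusted p = 2.73e-10, edgeR), and RANKL + UD against RANKL gave 0.09 ± 0.0671 (adjusted p = 0.340, edgeR). Bmf, a BH3-only gene named after its values were seen, fell by a log2 fold change of -2.21 ± 0.117 with RANKL, and RANKL + UD against control gave -2.24 ± 0.118.

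Downstream of the family, RANKL raised 11 and lowered 2 of 18 genes of the mitochondrial pathway and caspases, RANKL + UD against control raised 10 and lowered 2, and RANKL + UD against RANKL raised 5 and lowered 3. Called shares of all genes were 27.3% higher and 30.2% lower, 26.7% and 27.3%, and 18.6% and 20.2% in these comparisons. The median log2 fold change of this list was 0.29, 0.35 and 0.08, beside -0.03, -0.00 and 0.01 over all genes. Casp6, an executioner caspase, rose with RANKL (1.09 ± 0.102), and RANKL + UD against RANKL gave -0.24 ± 0.0965 with an adjusted p of 0.0553 in edgeR.

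Cycs and Birc2 were chosen after their values were seen, because both were higher in RANKL + UD than in both other groups. Birc2, an inhibitor of apoptosis that ubiquitinates signalling proteins, rose against RANKL by 0.49 ± 0.05, and Cycs, the cytochrome c gene, by 0.44 ± 0.0752. Birc2 measured 15.8 to 16.7 FPKM in control, 21.7 to 23.3 in RANKL and 33.1 to 34.0 in RANKL + UD libraries, without overlap.

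Of 10 death receptor and necroptosis genes, RANKL raised 2 and lowered 3, RANKL + UD against control raised 1 and lowered 3, and RANKL + UD against RANKL raised 2 and lowered 1. With RANKL this lies near the 27.3% higher and 30.2% lower of all genes, and the other comparisons had 26.7% and 27.3%, and 18.6% and 20.2%. The list's median log2 fold change was -0.14, -0.11 and 0.01. Ripk3, the kinase that starts necroptosis, fell with RANKL by -1.02 ± 0.0745 on the log2 scale and was higher with UD than with RANKL by 0.26 ± 0.0764. Its FPKM averaged 26.5 in control, 12.3 in RANKL and 15.6 in RANKL + UD.

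Transcription factors known to act on members were tested for 12 of 13 genes, of which RANKL raised 3 and lowered 5, RANKL + UD against control raised 1 and lowered 8, and RANKL + UD against RANKL raised 3 and lowered 5. Over all genes the shares were 27.3% higher and 30.2% lower, 26.7% and 27.3%, and 18.6% and 20.2%, and the list's median log2 fold change was -0.16, -0.23 and -0.17. Ddit3 (CHOP), which is induced by endoplasmic reticulum stress, had the widest change. It measured 15.2 to 17.3 FPKM in control, 27.0 to 30.4 in RANKL and 6.19 to 7.66 in RANKL + UD libraries. Its log2 fold change was 0.91 ± 0.0890 with RANKL against control (adjusted p = 1.6e-08, edgeR) and -2.18 ± 0.0974 with RANKL + UD against RANKL (adjusted p = 8.9e-13, edgeR), and it stood below control by -1.26 ± 0.1 (adjusted p = 7.01e-10, edgeR). Mitf, an osteoclast and melanocyte factor that can activate Bcl2, rose with RANKL (0.78 ± 0.0490) and was lower with UD than with RANKL (-0.60 ± 0.0487).

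The FoxO and TRP53 genes were named after their values were seen. With RANKL against control, Trp53 fell (-0.40 ± 0.0546, adjusted p = 2.14e-06, edgeR), and Foxo1, Foxo3 and Foxo4 were not called, at -0.23 ± 0.103, -0.11 ± 0.0696 and -0.03 ± 0.137. With RANKL + UD against control, Foxo4 (-0.54 ± 0.141, adjusted p = 0.00296, edgeR), Foxo1 (-0.35 ± 0.104, adjusted p = 0.00799, edgeR) and Trp53 (-0.25 ± 0.0545, adjusted p = 0.00053, edgeR) were lower and Foxo3 was not called, at -0.11 ± 0.0697. With RANKL + UD against RANKL, Foxo4 was lower by -0.51 ± 0.141 (adjusted p = 0.00665, edgeR), Trp53 was higher by 0.15 ± 0.0549 (adjusted p = 0.0361, edgeR), and Foxo1 (-0.11 ± 0.105) and Foxo3 (0.01 ± 0.0699) were not called. RNA levels do not show the phosphorylation or nuclear entry by which FoxO factors are controlled.

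Of 6 enzymes that add or remove ubiquitin on family proteins, RANKL raised 2 and lowered 2, RANKL + UD against control raised 2 and lowered 1, and RANKL + UD against RANKL raised 1 and lowered 1. Counts this small lie near the 27.3% and 30.2%, 26.7% and 27.3%, and 18.6% and 20.2% of all genes, and the list's median log2 fold change was 0.02, 0.12 and 0.10. Cblb, a ubiquitin ligase of signalling proteins, rose with RANKL by 1.11 ± 0.0951 and was lower with UD than with RANKL by -0.75 ± 0.0926. Its FPKM was low throughout, at 1.13 to 1.27 in control, 2.38 to 2.49 in RANKL and 1.49 to 1.57 in RANKL + UD libraries.

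**Figure D4:**
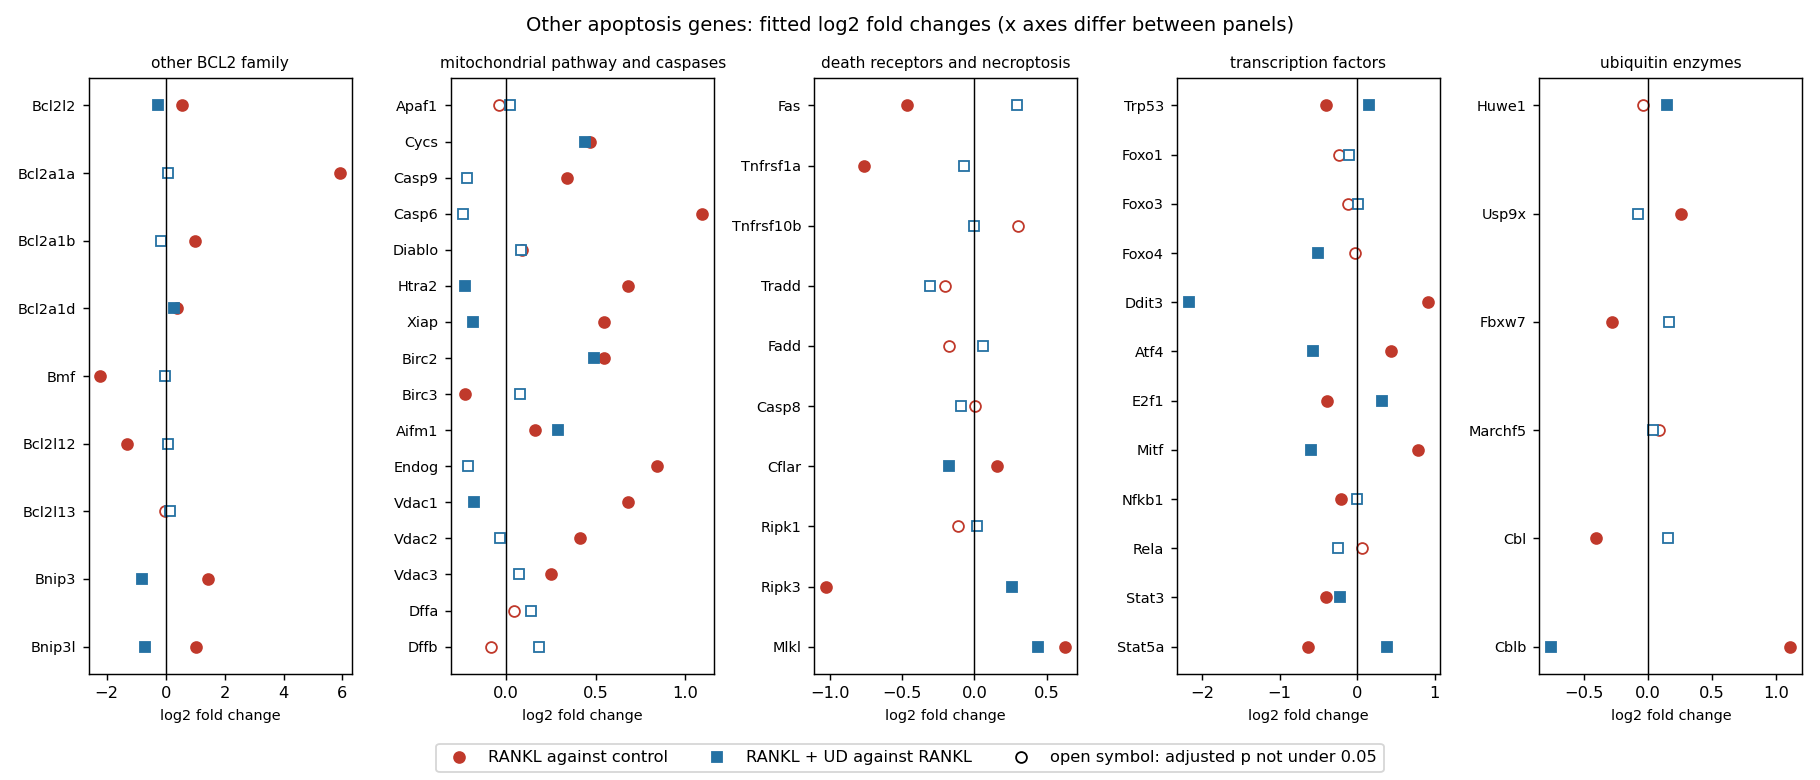
Fitted log2 fold change (horizontal axes, which differ between panels) of genes tested from 5 apoptosis lists in RANKL against control (red circles) and RANKL + UD against RANKL (blue squares), with open symbols where the adjusted p did not pass 0.05. Ddit3 stands out at -2.18 with UD and Bnip3, Bnip3l and Cblb lie on opposite sides of 0 in the 2 comparisons.

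Across the 9 libraries, the genes whose log2 levels followed Pmaip1 most closely were Serpinb6b (Pearson r = 0.999), Dcstamp (0.999) and Fgf11 (0.998). Serpinb6b averaged 1.93 FPKM in control, 177 in RANKL and 58.9 in RANKL + UD, and Dcstamp, a protein needed for osteoclast fusion, 28.0, 125 and 86.2. These points share 3 group levels, and 670 of the tested genes with a symbol (5.66%) had an r over 0.95 with Pmaip1. The 3 named genes were picked as the closest, and how many others came nearly as close was not counted.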

How the data were processed

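RNA from RAW264.7 cells was sequenced by the authors as poly(A)-selected, strand-specific, paired-end libraries on an Illumina NovaSeq. The deposited table holds raw read counts per gene, which the authors did not normalize, and the exonic length of each gene. The FPKM values deposited by the authors were recomputed from these counts, exonic lengths and library totals, within 0.0051, for 100% of genes. The aligner, counting tool and counting strand are not given in the sources used here. The submitters' processing notes name mm10, yet only 1435 of 52073 shared genes have the coordinates of the GRCm38 annotation (GENCODE M21), and no member does. No other build was compared, so the build of the table was not identified here. Libraries were grouped by their labels, and the authors' names for the value columns ("Model" for RANKL) follow the paper.

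Genes with at least 1 FPKM in at least 3 libraries (11995) were tested on counts with edgeR 4.0.16 (quasi-likelihood test, TMM scaling, all 9 libraries in one fit, R 4.3.3), with Benjamini-Hochberg adjustment over all of them. Calls used an adjusted p under 0.05, alone or with a fold change over 1.5. Fold changes carry the SE and 95% interval of the fit, and levels the SD over 3 libraries. TMM factors were 0.959 to 0.962 in RANKL and 1.01 to 1.03 in the other libraries. FPKM, CPM and the overlap of libraries were taken without these factors, unlike the edgeR fold changes. A narrow gap or overlap between RANKL and other libraries can therefore change with this scaling. With 3 libraries a group, 0.1 is the smallest p of an exact two-sided permutation test, so single genes were tested only in this fit. Replicate libraries differed by more than sampling noise (chi-square per degree of freedom 2.98 to 9.54).

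The members and the gene lists were chosen with earlier results of these data known. All 10 members were named whatever their values. From each other list, genes were named that were called with a fold over 1.5 in RANKL + UD against RANKL, or that had the largest called change with RANKL, and others are stated as chosen later. Some genes of these lists are counted but not reported here by name. Alternatives were other filters, RLE size factors, total counts, DESeq2 1.42.0, limma 3.58.1 on log2(FPKM + 1) and log2(FPKM + 0.1), the 6 libraries of a comparison alone, a replicate block and each library left out.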

Additional observations from a re-analysis of the deposited data

How the results depend on the processing

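Every alternative was run for all 3 comparisons, and 509 of the member results kept both their direction and their side of the threshold, while 18 lost their call, 1 gained it and 12 changed sign. No result that changed sign had been called. Scaled by total counts alone, Bbc3 became -0.043 in RANKL against control and Bcl2l11 0.009 in RANKL + UD against RANKL, the genes higher in RANKL + UD against RANKL rose from 2233 to 3350 (lower, from 2418 to 1707), and RANKL against control gave 2579 higher and 4421 lower in place of 3278 and 3628. The cause was not tested. With limma on log2(FPKM + 1) and on log2(FPKM + 0.1), Bbc3 was -0.035 and -0.040 with RANKL and Bcl2l11 0.011 and 0.014 with UD against RANKL, and the genes lower in RANKL + UD against RANKL numbered 1556 and 1536. Members past a fold of 1.5 with log2(FPKM + 1) numbered 0 lower in RANKL against control and 1 higher in RANKL + UD against control. In RANKL + UD against RANKL, 1 was lower with either pseudocount. A pseudocount of 1 understates changes of low genes, and FPKM carries no TMM scaling. The part of either in these counts was not tested. The shares by CPM were 76.0, 72.1 and 68.1% for anti-apoptotic members and 23.97, 27.9 and 31.9% for BH3-only and effector members together in control, RANKL and RANKL + UD, where FPKM gave 29.7, 33.7 and 38.3% for the latter.

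Leaving out each library in turn gave 3 to 6 members lower, 1 to 2 higher past a fold of 1.5 and 0 to 1 lower past it in RANKL against control, and 1 to 2 higher past it in RANKL + UD against control. The lower member past that fold, Bcl2, was lost without control replicate 2 or RANKL replicate 3, and Bad passed it without control replicate 2 or RANKL replicate 1. Changes of sign were Bbc3 with RANKL (-0.035 without control replicate 1 and -0.003 without RANKL replicate 2, in a range up to 0.149), Bak1 in RANKL + UD against control (-0.020 without control replicate 1, in a range up to 0.097), and, in RANKL + UD against RANKL without RANKL replicate 1, Bcl2l11 (0.003, in a range from -0.177), Bad (-0.036, up to 0.203) and Bax (-0.006, up to 0.153). With only the 6 libraries of the comparison, Bcl2l1 (adjusted p = 0.0634) and Bax (0.0727) lost their call with RANKL, and without the filter Mcl1 lost it in RANKL + UD against control (0.0543), all in edgeR.

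By the rule used here, a correlation over 0.1 in every same-number pair, the replicate numbers were not taken to pair the samples. Deviations from the group means correlated at -0.02 to 0.10 between the 9 pairs of libraries with the same number, none over 0.1. Between the 18 pairs with different numbers they correlated at -0.10 to 0.05. The highest values, 0.098 and 0.086, were of same-number pairs, and a weak shared effect of replicate was not tested. Not every library correlated best with its own number. With the replicate number as a block, RANKL + UD against RANKL gave 2347 genes higher and 2518 lower, and no member call changed. Depth limits Bbc3 and Bad most, with at most 361 counts in a library.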

Other observations

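Some members had their lowest or highest library under the same replicate number in all 3 groups. Bax and Bak1 were lowest in replicate 1 of all 3 groups, Bid and Bak1 were highest in replicate 3 of all 3 groups, and Bcl2 was lowest in replicate 3 of all 3 groups. For Bax, replicate 1 measured 37.3 FPKM in control, 29.5 in RANKL and 34.3 in RANKL + UD, where replicates 2 and 3 lay at 43.1 and 44.7, 36.8 and 35.4, and 39.8 and 40.4. For Bcl2, replicate 3 measured 3.51, 2.11 and 2.05 FPKM in the same order of groups. These were noticed in the data and were not tested, and the share of all genes with such a pattern was not computed. With the replicate number as a block in edgeR, RANKL against control gave adjusted p = 0.00472 for Bax and 0.00418 for Bak1. For Bid and Bcl2 it gave 9.35e-06 and 1.55e-06. The main edgeR fit gave 0.0382, 0.0140, 1.38e-05 and 4.89e-06 for the 4 genes in that order.

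Mlkl, the pore-forming protein of necroptosis, was higher than control in both treated groups, where Ripk3, the kinase that activates it, was lower. Mlkl measured 4.16 to 5.17 FPKM in control, 6.38 to 6.92 in RANKL and 9.08 to 10.2 in RANKL + UD libraries, without overlap. Its log2 fold change was 0.63 ± 0.112 for RANKL against control (adjusted p = 6.2e-05, edgeR) and 0.44 ± 0.105 for RANKL + UD against RANKL (adjusted p = 0.00225, edgeR). Ripk3 gave -1.02 ± 0.0745 and 0.26 ± 0.0764 in the same comparisons (adjusted p = 1.42e-10 and 0.0103, edgeR). Atf4, a stress-response factor that acts upstream of Ddit3, rose with RANKL by 0.43 ± 0.0468 and was lower with UD than with RANKL by -0.57 ± 0.0470 (adjusted p = 6.04e-09, edgeR). Both genes were chosen after their values were seen.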
